A study of Rattus norvegicus with 16 samples.

Results

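The genes described here are 32 liver genes of fatty acid oxidation and its regulation by PPAR-alpha, given as a list of gene symbols. The rule that picks their probe sets uses no comparison between groups, but the list was drawn up with earlier results of these data known. Of the 32, 30 had a probe set of their own on the array, among 4736 genes with a probe set of 1 symbol, and 29 passed the filter on dim probe sets and were tested. Where a gene had several probe sets, the one with the highest mean over the 16 arrays represents it. Crat had no probe set of its own. Cyp4a2 was measured only through a probe set it shares with Cyp4a3. Hadh was too dim for the filter, at 1.53 to 1.85, and was left untested.

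RNA was taken from liver tissue of male F344 rats, 6 weeks old on arrival, with 4 arrays in each of 4 groups. The vehicle rats received sucrose by gavage. The other groups received 0.3 mmol/kg of D3T, OLT or TBD on alternate days, 3 doses over 5 days, and livers were collected 24 h after the last dose. D3T is the plain dithiolethione ring, OLT (oltipraz) adds a methyl and a pyrazinyl substituent, and TBD adds a tert-butyl substituent. The titles call the vehicle rats untreated, while the study's protocol gives them sucrose. All values are log2 expression values, given as mean ± SD over 4 arrays, and differences are log2 ± SE of the fit.

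PPAR-alpha is a nuclear receptor activated by fatty acids that binds DNA as a dimer with RXR and, in liver, drives genes that take up, activate and burn fatty acids during fasting. Fatty acids are activated to acyl-CoA, carried into mitochondria by the carnitine shuttle and shortened there by repeated cycles of dehydrogenation, hydration, a further dehydrogenation and thiolysis. Peroxisomes shorten very long and branched chains by a parallel route, and microsomal CYP4A enzymes oxidise the far end of the chain. In rodents, PPAR-alpha ligands raise many of these genes together and make peroxisomes multiply.

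The median of an array was 3.27 to 3.58. Within groups, pairs of arrays had a Pearson r of 0.983 to 0.997 (computed over probe sets, so genes and not animals are the points). On the first principal component, which held 39.9% of the variance, vehicle replicates 2 and 4 lay at -38.8 and -38.5. Vehicle replicates 1 and 3 lay at -17.0 and -22.9. On the second principal component, which held 13.0% of the variance, OLT replicate 1 and TBD replicate 4 stood apart from their groups, at -21.7 and -21.8. Vehicle replicate 1 lay below the vehicle mean for 24 of the 29 tested members, with a median deviation of -0.25. Results that rest on these arrays are given with and without them.

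With each of the 3 compounds more members were lower than higher. A member is counted as changed when limma's Benjamini-Hochberg adjusted p, taken over all 5323 tested probe sets, was under 0.05. TBD lowered 15 of 29 members and raised 1, with a median difference of -0.62 against -0.02 over all tested probe sets. D3T lowered 12 and raised 2, with a median of -0.37 against 0.04. OLT lowered 7 and raised 1, with a median of -0.44 against -0.03. Among all tested probe sets the shares called lower were 12.2% with D3T, 7.89% with OLT and 9.47% with TBD. The shares called higher were 6.18%, 3.38% and 3.55% in the same order. Renewed quantile normalization moved the higher share of all calls from 33.5% to 52.9% with D3T, from 30.0% to 46.5% with OLT and from 27.3% to 44.9% with TBD. Centring the array medians gave 43.8% with D3T, 41.8% with OLT and 33.6% with TBD. Under quantile normalization 11, 8 and 15 members were lower with D3T, OLT and TBD, and under centring 11, 3 and 10.

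The count for OLT rested on few arrays. It was 3 when vehicle replicate 2 was left out, and 4 when vehicle replicate 4 or either of OLT replicates 2 and 4 was left out. These counts, like the main one of 8, include both directions. Without both arrays that stand apart on the second component, a check added after the data were seen, OLT changed 14 members and TBD 18. The members that OLT then also changed were Ehhadh, Cpt2, Ech1, Decr2 and Cat, all lower, and Cyp4a3, which was higher.

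Of the 29 tested members, 7 changed with all 3 compounds. Acadm, Acadl, Cyp4a1, Acsl1, Hacl1 and Acot2 were lower, and Plin2 was higher. A further 6 changed with 2 compounds, 5 with 1 and 11 with none. No member rose with 1 compound and fell with another. The 3 comparisons share the vehicle arrays, so their similarity is not independent evidence. The share of all tested probe sets that changed with all 3 compounds was not worked out, so these counts have no background beside them. The RNA came from tissue, so fewer hepatocytes and less RNA per hepatocyte cannot be told apart.

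**Figure D1:**
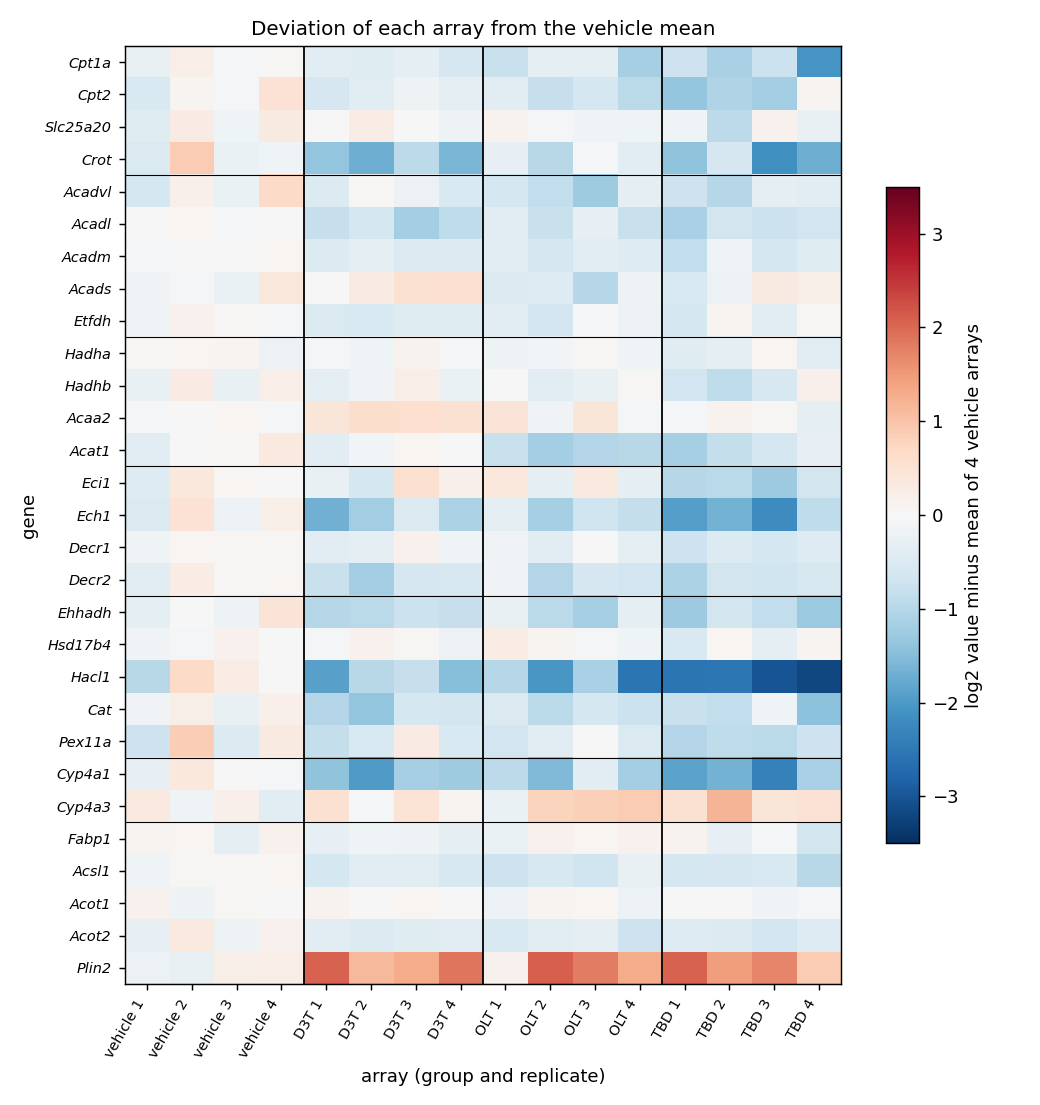
Deviation of each array from the mean of the 4 vehicle arrays for the 29 tested members (rows, by role) on 16 arrays (columns), as log2 differences, with blue for lower and red for higher. The TBD arrays had median deviations of -0.72 to -0.45 and the D3T arrays -0.41 to -0.17, and Plin2 was the gene with the strongest rise.

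**Figure D2:**
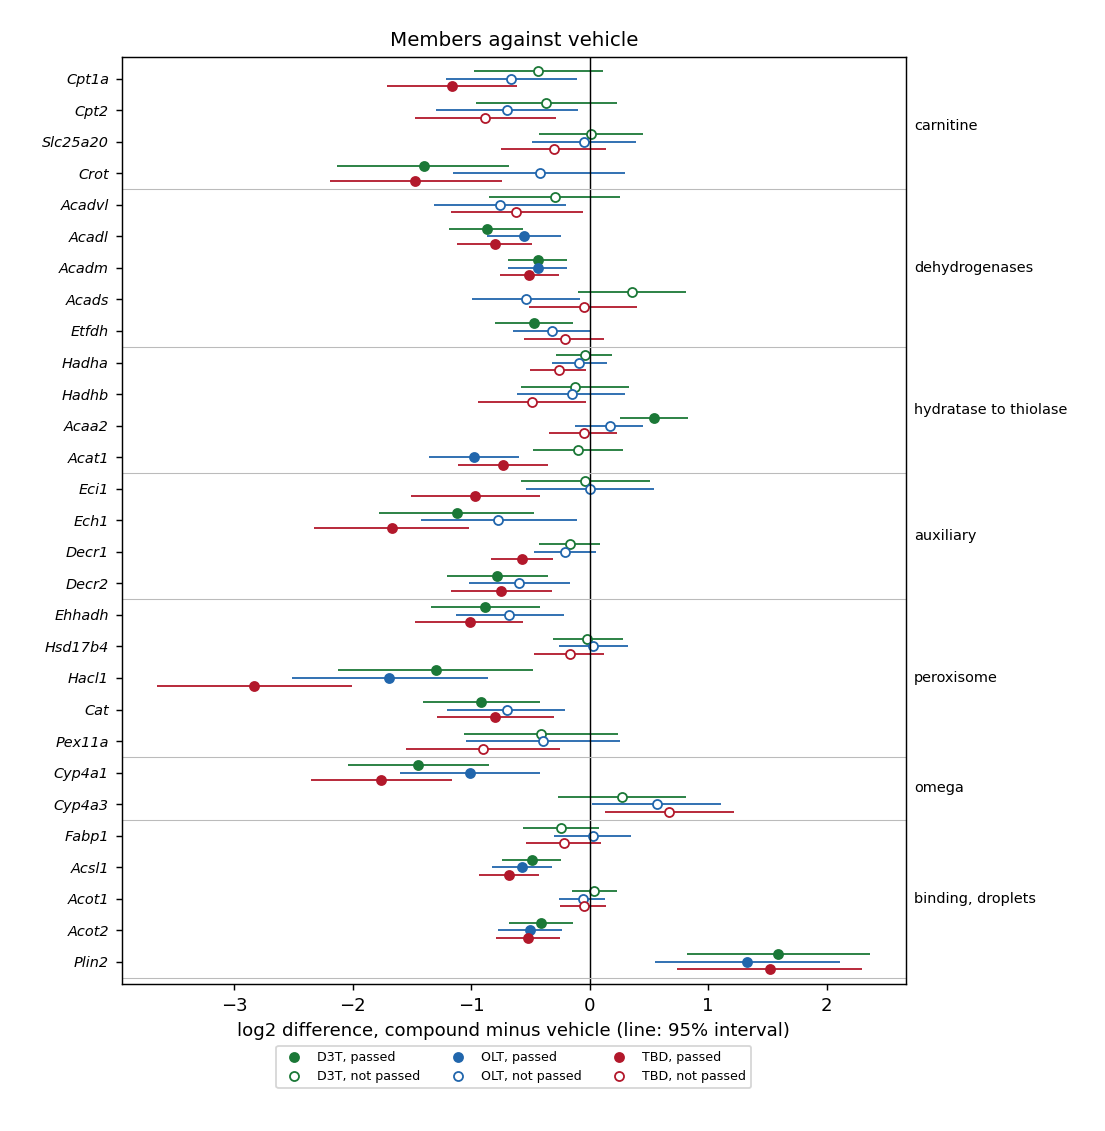
Log2 difference of each compound from vehicle for the 29 tested members, ordered by role, with 95% intervals as lines. Filled points passed the threshold and open points did not, and filled points to the left of 0 number 12 for D3T, 7 for OLT and 15 for TBD.

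In the carnitine shuttle, Crot was lower with D3T and TBD and Cpt1a with TBD alone. Of its 4 tested members, D3T lowered 1, TBD lowered 2 and OLT none, while 1, 2 and 3 members had an unadjusted p under 0.05 in limma with D3T, OLT and TBD. Over all tested probe sets the shares at that unadjusted p were 30.8%, 23.1% and 24.3%. Cpt1a, the outer membrane enzyme that controls entry of long chains into mitochondria, read 11.40, 11.89, 11.62 and 11.69 on the vehicle arrays and 11.24, 11.22, 11.33 and 11.06 with D3T. It read 10.86, 11.32, 11.30 and 10.49 with OLT and 10.93, 10.52, 10.91 and 9.59 with TBD. Every treated array lay below every vehicle array, but only TBD passed the threshold, with a difference of -1.16 ± 0.26 (2.24-fold lower, adjusted p = 0.00789 in limma). The differences with D3T (-0.44 ± 0.26, adjusted p = 0.272) and OLT (-0.66 ± 0.26, adjusted p = 0.12) did not pass. With the 8 vehicle and D3T arrays alone, Cpt1a passed for D3T (adjusted p = 0.0277), and with the 8 vehicle and TBD arrays alone it missed for TBD (adjusted p = 0.0507). Without TBD replicate 4 the OLT difference of Cpt1a also passed (adjusted p = 0.0222).

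Crot, which transfers medium chains made in peroxisomes to carnitine, read 5.77, 7.17, 6.04 and 6.13 with vehicle and 4.90, 4.57, 5.35 and 4.67 with D3T. With OLT it read 5.99, 5.32, 6.23 and 5.88, and with TBD 4.87, 5.68, 4.13 and 4.56. The D3T and TBD arrays lay wholly below the vehicle arrays, while the OLT arrays overlapped them. D3T lowered Crot by -1.40 ± 0.34 (2.65-fold, adjusted p = 0.01) and TBD by -1.47 ± 0.34 (2.77-fold, adjusted p = 0.0106). OLT differed from vehicle by -0.42 ± 0.34 (adjusted p = 0.594). The TBD call was lost on the 8 compared arrays alone (adjusted p = 0.0643). A further Crot set lay at -0.14, 0.05 and -0.29 with D3T, OLT and TBD and did not pass. Cpt2, the inner membrane partner of Cpt1a, lay at -0.37, -0.70 and -0.88 against vehicle with D3T, OLT and TBD and did not pass. Without TBD replicate 4, where Cpt2 read 10.05 against 8.59 to 8.91 on the other TBD arrays, the TBD difference was -1.20 (adjusted p = 0.00136) and the OLT difference passed too (adjusted p = 0.0244). Without vehicle replicate 1 the TBD difference of Cpt2 was -1.05 (adjusted p = 0.0255). Slc25a20, the carrier that exchanges acylcarnitine for carnitine, lay within -0.30 and 0.01 of vehicle and did not pass.

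Among the dehydrogenases that open each cycle, the medium and long chain enzymes were lower with all 3 compounds. Acadl, the long chain enzyme, read 11.63, 11.70, 11.54 and 11.61 with vehicle and 10.82, 11.01, 10.43 and 10.73 with D3T. It read 11.26, 10.84, 11.33 and 10.85 with OLT and 10.48, 10.98, 10.88 and 10.94 with TBD. No treated array reached the lowest vehicle array. The differences were -0.87 ± 0.15 with D3T (adjusted p = 0.001), -0.55 ± 0.15 with OLT (adjusted p = 0.0249) and -0.80 ± 0.15 with TBD (adjusted p = 0.00251). The OLT call was lost without vehicle replicate 2 or 4 or OLT replicate 2 or 4, where the adjusted p rose to at most 0.0799. It was also lost with centred medians (adjusted p = 0.0834), array weights (-0.38) and the mean of the Acadl probe sets (-0.30). The further Acadl set lay at 0.12, -0.04 and 0.06 with D3T, OLT and TBD and did not pass.

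Acadm, the medium chain enzyme, read 11.29, 11.34, 11.37 and 11.42 with vehicle and 10.89, 11.02, 10.86 and 10.88 with D3T. The OLT arrays read 10.99, 10.78, 10.97 and 10.91, and with TBD 10.50, 11.20, 10.74 and 10.94. The vehicle arrays were the highest 4 of the 16. D3T and OLT each lowered Acadm by -0.44 ± 0.12 (adjusted p = 0.0161 and 0.0237), and TBD by -0.51 ± 0.12 (adjusted p = 0.00985). The OLT call was lost without vehicle replicate 2, 3 or 4 or OLT replicate 2 or 4 (adjusted p up to 0.0712) and with centred medians (adjusted p = 0.097). The TBD call was lost on the 8 compared arrays alone (adjusted p = 0.0785).

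Etfdh, which passes electrons from these dehydrogenases to the respiratory chain, was lower with D3T by -0.47 ± 0.16 (9.65 ± 0.12 in vehicle, 9.19 ± 0.06 with D3T, adjusted p = 0.0495). That call lay at the threshold and was lost without any 1 of the vehicle or D3T arrays, or without OLT replicate 1 or 4 or TBD replicate 3 (adjusted p up to 0.142), and under quantile normalization (-0.30, adjusted p = 0.173). Centring, no filter, the trended prior and the mean of the Etfdh probe sets ended it too. Acadvl, the very long chain enzyme, lay at -0.29, -0.76 and -0.62 against vehicle with D3T, OLT and TBD, and Acads, the short chain enzyme, at 0.36, -0.54 and -0.05. Neither passed in any of the 3 comparisons. Without vehicle replicate 1, Acadvl passed with OLT (-0.96, adjusted p = 0.0241) and TBD (-0.82, adjusted p = 0.0463). Under quantile normalization Acads was higher with D3T (0.60, adjusted p = 0.0217).

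The later mitochondrial steps did not move together. Hadha and Hadhb encode the subunits of the trifunctional protein, which carries out hydration, the later dehydrogenation and thiolysis of long chains. Hadha lay within -0.26 and -0.04 of vehicle, and Hadhb within -0.49 and -0.12, with no call. With TBD, Hadha passed without TBD replicate 3 (-0.38, adjusted p = 0.0213) and Hadhb without TBD replicate 4 (-0.71, adjusted p = 0.0129). Acaa2, the mitochondrial thiolase for shorter chains, was higher with D3T (11.87 ± 0.05 in vehicle, 12.41 ± 0.08 with D3T), by 0.54 ± 0.13 (adjusted p = 0.0114), and the groups did not overlap. With OLT and TBD, Acaa2 lay at 0.17 ± 0.13 and -0.05 ± 0.13 from vehicle and did not pass. The OLT arrays fell into a pair at 12.30 and 12.31 and a pair at 11.75 and 11.79.

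Acat1, the thiolase that acts on acetoacetyl-CoA in ketone body and isoleucine metabolism, read 9.81, 10.21, 10.23 and 10.54 with vehicle and 9.83, 10.10, 10.26 and 10.18 with D3T. On the OLT arrays it read 9.42, 9.02, 9.18 and 9.23, and with TBD 9.04, 9.37, 9.58 and 9.90. The OLT arrays lay below all vehicle and all D3T arrays, and TBD replicate 4 overlapped vehicle. Acat1 was lower by -0.98 ± 0.18 with OLT (1.98-fold, adjusted p = 0.00263) and by -0.73 ± 0.18 with TBD (1.65-fold, adjusted p = 0.0144). The TBD call was lost without vehicle replicate 4 (-0.61, adjusted p = 0.0505), on the 8 compared arrays (adjusted p = 0.0811), with centred medians (adjusted p = 0.0704) and with the mean of the Acat1 probe sets (-0.40, adjusted p = 0.112). With D3T the difference was -0.10 ± 0.18 (adjusted p = 0.738).

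**Figure D3:**
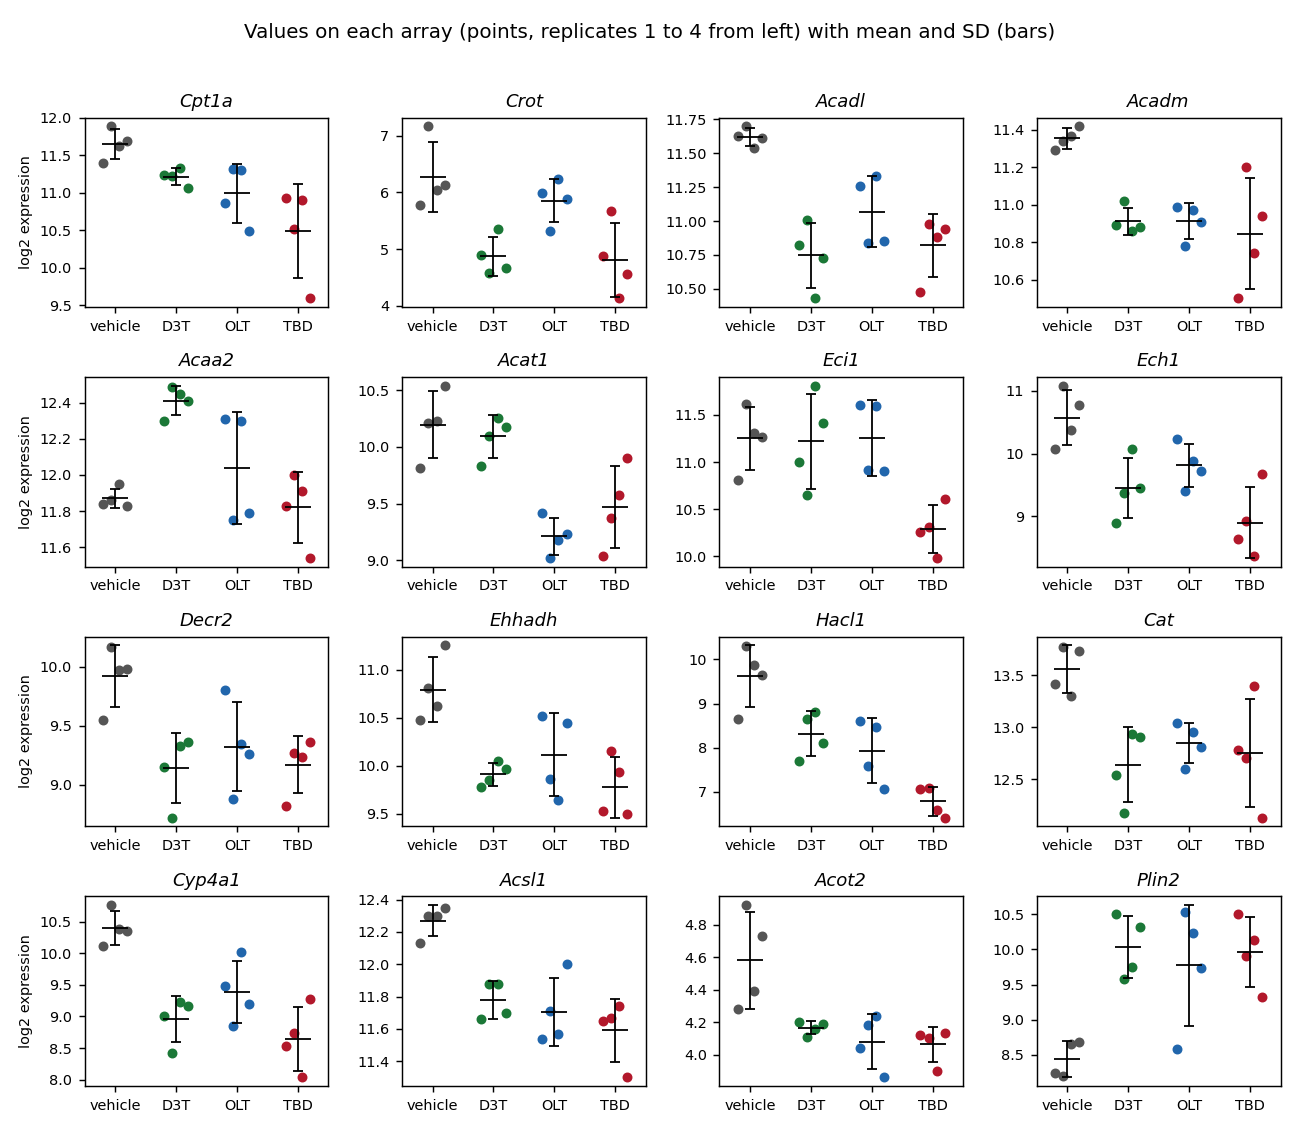
Log2 expression on each of the 16 arrays for 16 members, with points for replicates 1 to 4, short horizontal bars for the mean and whiskers for the SD in each group of 4. The vehicle arrays of Acadl and Acadm lie above all treated arrays, and for Plin2 the treated arrays lie above vehicle except OLT replicate 1 at 8.58, which falls within the vehicle range.

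All 4 auxiliary enzymes, which shift or reduce double bonds so that unsaturated chains can be oxidised, were lower with TBD. D3T lowered 2 of them and OLT none, with 2 at an unadjusted p under 0.05 in limma for OLT. Ech1, which moves double bonds in dienoyl-CoA, read 10.07, 11.08, 10.38 and 10.77 with vehicle and 8.90, 9.37, 10.08 and 9.46 with D3T. Values with OLT were 10.23, 9.40, 9.89 and 9.73, and with TBD 8.64, 8.92, 8.37 and 9.68. All TBD arrays were below vehicle, while D3T replicate 3 overlapped vehicle. The differences were -1.67 ± 0.31 with TBD (3.19-fold, adjusted p = 0.00242), -1.12 ± 0.31 with D3T (adjusted p = 0.0191) and -0.77 ± 0.31 with OLT (adjusted p = 0.133). The D3T call was lost without vehicle replicate 2 or 4 or D3T replicate 1 (adjusted p up to 0.0708).

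Decr2, the peroxisomal dienoyl-CoA reductase, read 9.55, 10.17, 9.97 and 9.98 with vehicle and 9.15, 8.72, 9.33 and 9.36 with D3T. With OLT it read 9.80, 8.88, 9.34 and 9.26, and with TBD 8.82, 9.27, 9.23 and 9.36. D3T and TBD arrays lay below vehicle, and OLT replicate 1 overlapped it. Decr2 was lower by -0.78 ± 0.20 with D3T (adjusted p = 0.0136) and by -0.75 ± 0.20 with TBD (adjusted p = 0.0219), and the TBD call was lost without vehicle replicate 2 or 4 or TBD replicate 1 (adjusted p up to 0.074) or with centred medians (adjusted p = 0.0927). The D3T call was lost with the mean of the Decr2 probe sets (-0.44, adjusted p = 0.102), and the further Decr2 set lay at -0.09, 0.17 and -0.36 with D3T, OLT and TBD without passing. The OLT difference was -0.60 ± 0.20 (adjusted p = 0.0679), and passed without OLT replicate 1 (-0.76, adjusted p = 0.0232) or vehicle replicate 1 (-0.72, adjusted p = 0.0339). Decr1, the mitochondrial reductase, was lower with TBD (10.68 ± 0.11 to 10.12 ± 0.13, -0.57 ± 0.12, adjusted p = 0.00649). Eci1, an enoyl-CoA isomerase, was lower with TBD (11.26 ± 0.34 to 10.29 ± 0.26, -0.97 ± 0.25, adjusted p = 0.0209), a call that was lost without vehicle replicate 2 or TBD replicate 3 (adjusted p up to 0.073) or with centred medians (adjusted p = 0.0591). With D3T and OLT Eci1 lay at -0.04 and 0.00.

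The peroxisomal members held the largest fall. Hacl1, the lyase of branched chain alpha oxidation, read 8.65, 10.30, 9.88 and 9.64 with vehicle and 7.71, 8.66, 8.80 and 8.12 with D3T. The OLT arrays read 8.61, 7.58, 8.47 and 7.07, and with TBD 7.06, 7.08, 6.60 and 6.42. The TBD arrays lay below all vehicle, D3T and OLT arrays except that OLT replicate 4 fell among them. TBD lowered Hacl1 by -2.83 ± 0.38 (7.10-fold, adjusted p = 0.000318), OLT by -1.69 ± 0.38 (3.22-fold, adjusted p = 0.0111) and D3T by -1.30 ± 0.38 (2.46-fold, adjusted p = 0.029). The D3T groups overlapped at vehicle replicate 1. The D3T call was lost without vehicle replicate 2, 3 or 4 or D3T replicate 1 or 4 (adjusted p up to 0.107) and under quantile normalization (-1.12, adjusted p = 0.062).

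Ehhadh, the bifunctional enzyme of peroxisomal oxidation and a long used PPAR-alpha target, read 10.48, 10.81, 10.62 and 11.25 with vehicle and 9.78, 9.85, 10.05 and 9.97 with D3T. On the OLT arrays it read 10.52, 9.86, 9.64 and 10.44, and with TBD 9.53, 10.15, 9.93 and 9.50. D3T and TBD arrays were all below vehicle, and OLT replicate 1 overlapped it. The differences were -0.88 ± 0.21 with D3T (adjusted p = 0.0103) and -1.01 ± 0.21 with TBD (2.02-fold, adjusted p = 0.00589). OLT missed the threshold at -0.68 ± 0.21 (adjusted p = 0.0552) and passed without vehicle replicate 1, without OLT replicate 1 or 4, and without TBD replicate 2 or 4, with -0.81 and an adjusted p of 0.0315 without OLT replicate 1.

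Cat, the catalase that removes peroxide made in peroxisomes, read 13.42, 13.77, 13.30 and 13.73 with vehicle and 12.54, 12.17, 12.93 and 12.91 with D3T. Values with OLT were 13.04, 12.60, 12.95 and 12.81, and with TBD 12.78, 12.70, 13.40 and 12.13. TBD replicate 3 fell within the vehicle range, and the D3T and OLT arrays lay below it. Cat was lower by -0.92 ± 0.23 with D3T (adjusted p = 0.0127) and by -0.80 ± 0.23 with TBD (adjusted p = 0.0341), and lay at -0.70 ± 0.23 with OLT (adjusted p = 0.0644). The TBD call was lost without vehicle replicate 2 or 4 or TBD replicate 1, 2 or 4 (adjusted p up to 0.102), and without both arrays that stand apart (-0.59, adjusted p = 0.081). It was also lost on the 8 compared arrays (adjusted p = 0.104), with centred medians (adjusted p = 0.0993) and with no filter. OLT passed for Cat without TBD replicate 3 or 4 (adjusted p = 0.0287 and 0.0283). Pex11a, which divides peroxisomes, lay at -0.41, -0.39 and -0.90 with D3T, OLT and TBD and did not pass. The TBD difference of Pex11a passed without vehicle replicate 1 or 3 or D3T replicate 3. Hsd17b4, the other bifunctional enzyme of peroxisomal oxidation, lay within -0.17 and 0.03 of vehicle on its brightest probe set.

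The CYP4A enzymes hydroxylate the end carbon of fatty acids, and Cyp4a1 is a classic marker of PPAR-alpha ligands in rat liver. It read 10.11, 10.76, 10.38 and 10.35 with vehicle and 9.00, 8.43, 9.23 and 9.16 with D3T. With OLT it read 9.48, 8.85, 10.02 and 9.20, and with TBD 8.53, 8.74, 8.04 and 9.27. No treated array reached the vehicle range. Cyp4a1 was lower by -1.45 ± 0.28 with D3T (2.72-fold, adjusted p = 0.00229), by -1.01 ± 0.28 with OLT (2.01-fold, adjusted p = 0.0283) and by -1.76 ± 0.28 with TBD (3.38-fold, adjusted p = 0.000894). The OLT call was lost without vehicle replicate 2, 3 or 4 or OLT replicate 2 or 4 (adjusted p up to 0.0951), with centred medians (adjusted p = 0.0693) and with the mean of the Cyp4a1 probe sets (-0.74, adjusted p = 0.0799).

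Cyp4a3, a close paralog, did not follow Cyp4a1. Its own probe set lay above vehicle by 0.27 ± 0.25, 0.57 ± 0.25 and 0.67 ± 0.25 with D3T, OLT and TBD, without passing. OLT replicate 1 stood apart at 5.76, against 6.78 to 6.88 on the other OLT arrays. Without it the OLT difference was 0.83 (adjusted p = 0.0231) and the TBD difference, whose spread estimate is shared, passed at 0.67 (adjusted p = 0.0352). The probe set shared by Cyp4a3 and Cyp4a2 lay at 0.03 and 0.19 with D3T and OLT and at -0.52 ± 0.19 with TBD (adjusted p = 0.0948), so the sets that cover Cyp4a3 differed in sign for TBD. Probes of such paralogs can cross-hybridise.

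Of the members that bind, activate or store fatty acids, Plin2 was the only member raised by all 3 compounds. Plin2 coats lipid droplets. It read 8.24, 8.19, 8.65 and 8.68 with vehicle and 10.50, 9.58, 9.75 and 10.32 with D3T. The OLT arrays read 8.58, 10.53, 10.24 and 9.74, and with TBD 10.50, 9.90, 10.14 and 9.32. All treated arrays but OLT replicate 1 lay above the vehicle range. The differences were 1.59 ± 0.36 with D3T (3.02-fold, adjusted p = 0.00728), 1.33 ± 0.36 with OLT (2.52-fold, adjusted p = 0.0281) and 1.52 ± 0.36 with TBD (2.88-fold, adjusted p = 0.0126). The OLT call was lost without vehicle replicate 1 or 2 or OLT replicate 2, 3 or 4 (adjusted p up to 0.091), and on the 8 compared arrays alone (adjusted p = 0.061).

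Acsl1, the main liver enzyme that activates long chains to acyl-CoA, read 12.13, 12.30, 12.30 and 12.35 with vehicle and 11.66, 11.88, 11.88 and 11.70 with D3T. On the OLT arrays it read 11.54, 11.71, 11.57 and 12, and with TBD 11.65, 11.67, 11.74 and 11.30. No treated array reached the vehicle range. The differences were -0.49 ± 0.12 with D3T (adjusted p = 0.0092), -0.57 ± 0.12 with OLT (adjusted p = 0.00596) and -0.68 ± 0.12 with TBD (adjusted p = 0.00152), and all 3 calls held without any 1 array. The D3T call was lost with the mean of the Acsl1 probe sets (-0.24, adjusted p = 0.0643). The 3 further Acsl1 sets lay at 0.12, -0.34 and -0.27 with D3T and at -0.02, -0.41 and -0.26 with OLT, none passing. With TBD they lay at -0.04, -1.11 and -0.24, and the set at -1.11 passed (adjusted p = 0.0146), a call lost without vehicle replicate 2.

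Acot2, a mitochondrial thioesterase that releases fatty acids from acyl-CoA, was near the middle of each array. It read 4.28, 4.92, 4.39 and 4.73 with vehicle and 4.20, 4.11, 4.16 and 4.19 with D3T. Values with OLT were 4.04, 4.18, 4.24 and 3.86, and with TBD 4.12, 4.10, 3.90 and 4.13. No treated array reached the vehicle range, and the treated arrays were close together. Acot2 was lower by -0.41 ± 0.13 with D3T (adjusted p = 0.0339), -0.50 ± 0.13 with OLT (adjusted p = 0.0185) and -0.52 ± 0.13 with TBD (adjusted p = 0.0142). The D3T call was lost without vehicle replicate 2 or 4 or any 1 D3T array (adjusted p up to 0.11), and the OLT call without vehicle replicate 2 or 4 or OLT replicate 4 (adjusted p up to 0.0601). On the 8 compared arrays all 3 Acot2 calls were lost (adjusted p = 0.0666, 0.0925 and 0.0836 with D3T, OLT and TBD), and with centred medians those of OLT and TBD (adjusted p = 0.0744 and 0.0548). Acot1, its cytosolic paralog, lay within -0.06 and 0.04 of vehicle. Fabp1, the fatty acid binding protein of hepatocytes, lay at -0.24, 0.03 and -0.22 with D3T, OLT and TBD without passing, and at -0.42 with D3T under quantile normalization, where it passed (adjusted p = 0.0168).

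Several members have further probe sets, and 21 such sets were tested beside the brightest. Of these, D3T lowered 4 and raised 1, OLT lowered 2 and raised 1, and TBD lowered 10 and raised 1. Among all tested probe sets 12.2%, 7.89% and 9.47% were called lower with D3T, OLT and TBD, and 6.18%, 3.38% and 3.55% higher. The OLT counts lay near those shares. A second Cat set was lower with D3T by -0.50 (adjusted p = 0.0476) and with TBD by -0.66 (adjusted p = 0.0164) in limma. That D3T call was lost without any 1 of 11 arrays. OLT left this Cat set at -0.33, without passing. With TBD a second Decr1 set was lower by -0.91 (adjusted p = 0.0115) and a second Eci1 set by -1.59 (adjusted p = 0.0393). Neither passed with D3T or OLT. For Plin2 and Cyp4a1 a second set moved as the brightest did. The second Plin2 set was higher by 1.59, 1.69 and 1.52 with D3T, OLT and TBD, and the second Cyp4a1 set was lower by -0.89, -0.89 and -1.72, its OLT call being lost under quantile normalization. Another Cyp4a1 set was lower with TBD by -1.23, a call lost without vehicle replicate 2 or 4 or TBD replicate 2 or 3, and lay at -0.32 and -0.31 with D3T and OLT without passing. For the second Plin2 set, leaving out vehicle replicate 2 or 4 ended the call with each compound. So did leaving out D3T replicate 1 or 3 for D3T, OLT replicate 2, 3 or 4 for OLT, and any 1 D3T array, OLT replicate 2, 3 or 4 or TBD replicate 1, 2 or 3 for TBD.

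For Hadha, Hsd17b4 and Etfdh a further set was called with at least 1 compound where the brightest was not. A Hadha set was lower by -1.33 ± 0.32 with OLT (adjusted p = 0.0145) and by -1.72 ± 0.32 with TBD (adjusted p = 0.00255), where the brightest Hadha set lay at -0.09 and -0.26. Its vehicle values were 6.84, 7.51, 7.31 and 8.08 and its TBD values 5.98, 5.56, 4.93 and 6.38, with no overlap. Another Hadha set was lower with TBD by -0.42, a call lost without most single arrays (adjusted p = 0.114 without vehicle replicate 4). An Hsd17b4 set was lower by -0.64 ± 0.14 with D3T (adjusted p = 0.00487) and -0.59 ± 0.14 with TBD (adjusted p = 0.0107), where the brightest lay at -0.02 and -0.17. An Etfdh set was lower by -0.80 ± 0.18 with D3T (adjusted p = 0.00576) and by -0.70 ± 0.18 with TBD (adjusted p = 0.0164), the latter lost without vehicle replicate 2 or TBD replicate 1. For Acat1, the further sets lay at -0.66 and -0.18 with OLT and did not pass.

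**Figure D4:**
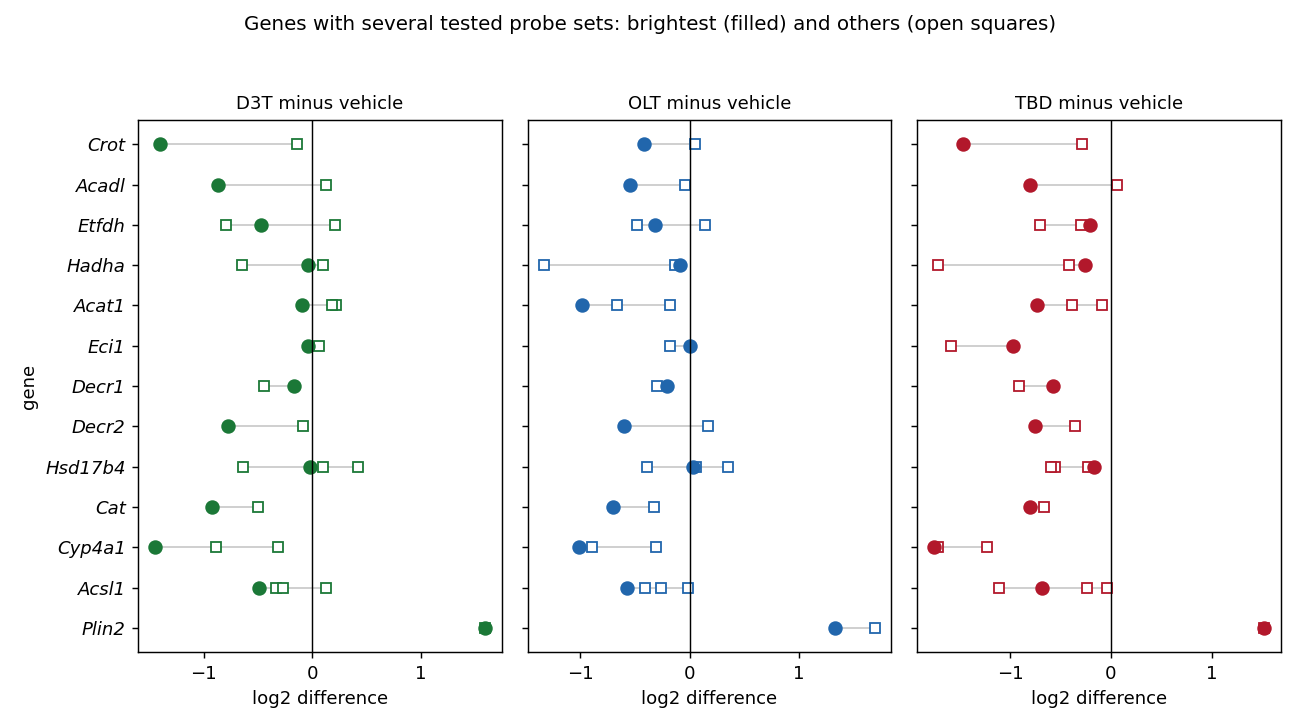
Log2 difference from vehicle for the 13 members with several tested probe sets, in a panel per compound, with a filled circle for the brightest probe set and open squares for the others. For Plin2 and Cyp4a1 all sets lie on 1 side of 0, while for Hadha with TBD they run from -1.72 to -0.26.

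Between compounds, given at the same dose and time, few members differed. The 29 tested members were compared in 3 pairs of compounds, with p-values adjusted over all 5323 probe sets within each pair. D3T against OLT called 1 of 29 members, where 0.395% of all probe sets were called higher and 0.676% lower. That member was Acat1, higher with D3T than with OLT by 0.88 ± 0.18 (95% interval 0.50 to 1.26, 1.84-fold, adjusted p = 0.0272), with no overlap of the arrays. The call was lost without D3T replicate 2, 3 or 4 or OLT replicate 2, 3 or 4 (adjusted p up to 0.0877) and when array medians were centred (0.80, adjusted p = 0.13). Acads lay higher with D3T than with OLT by 0.90 ± 0.21 (interval 0.44 to 1.35) but missed the threshold (adjusted p = 0.0646), which it passed under quantile normalization (adjusted p = 0.012) and without TBD replicate 1 (adjusted p = 0.0382).

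TBD against OLT called none of the 29 members in limma, where 0% of probe sets were called higher and 0.0564% lower, and 7 members had an unadjusted p under 0.05, as had 2.72% of all probe sets. The largest differences were in Hacl1 (-1.14 ± 0.38, interval -1.96 to -0.32), Crot (-1.05 ± 0.34, interval -1.77 to -0.32) and Eci1 (-0.97 ± 0.25, interval -1.51 to -0.42). D3T against TBD also called none, where 0.188% were called higher and 0.470% lower, and 6 members had an unadjusted p under 0.05, as had 10.0% of all probe sets. Hacl1 lay higher with D3T than with TBD by 1.53 ± 0.38 (interval 0.71 to 2.35, adjusted p = 0.105), Eci1 by 0.93 ± 0.25 (interval 0.39 to 1.47, adjusted p = 0.142) and Acaa2 by 0.59 ± 0.13 (interval 0.31 to 0.88, adjusted p = 0.0616). Acaa2 passed without OLT replicate 1 or 2 (adjusted p = 0.0454 and 0.041). The 95% intervals between compounds extended 0.192 to 0.821 to each side of the difference, with a median of 0.455. A missed threshold here does not show that the compounds act alike.

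**Figure D5:**
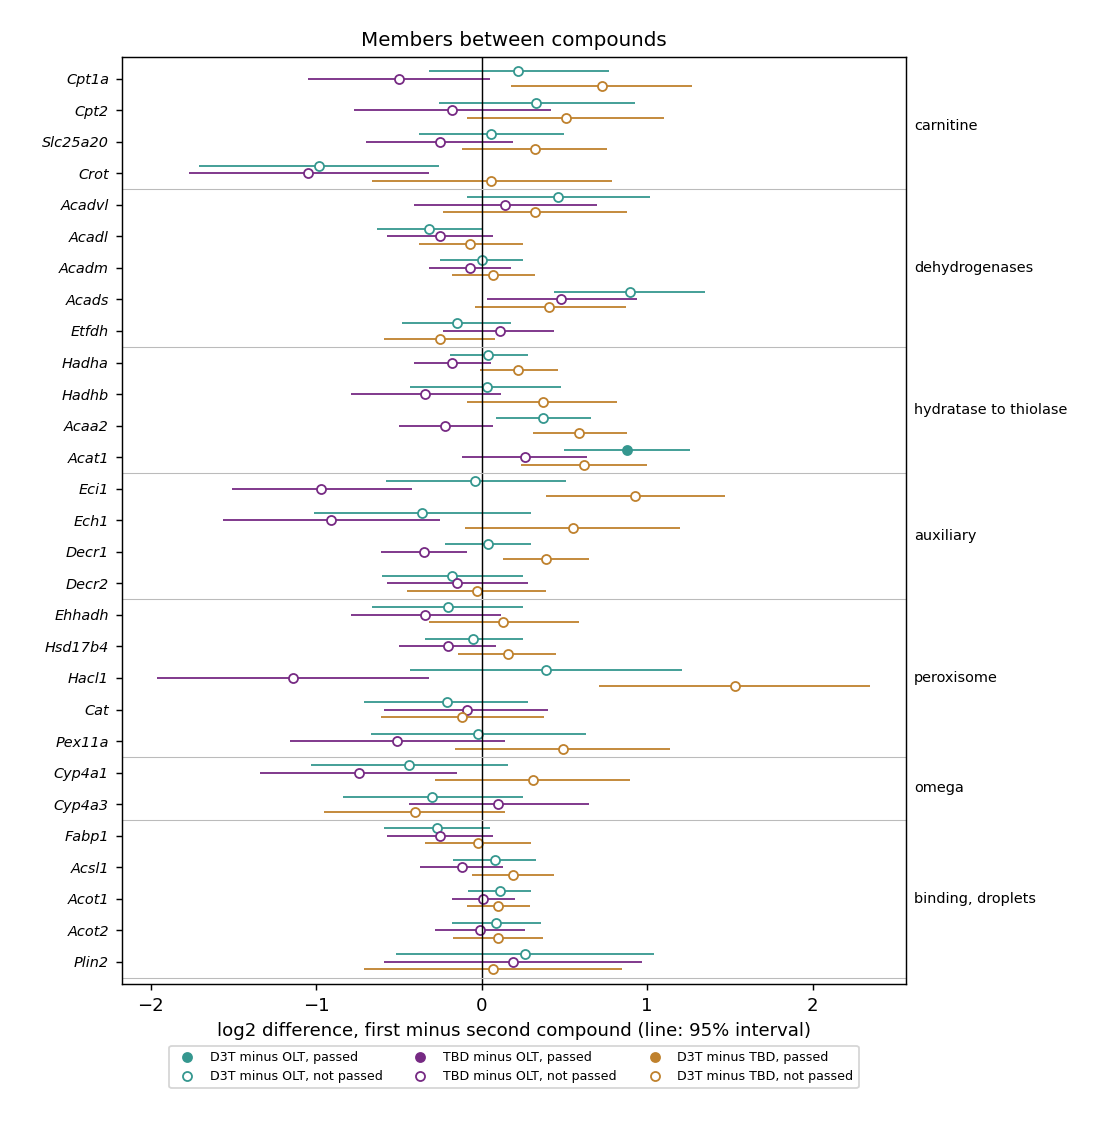
Log2 difference between compounds for the 29 tested members in 3 pairs, with 95% intervals as lines. The only filled point, which passed the threshold, is Acat1 for D3T minus OLT, and several intervals that exclude 0 belong to members that did not pass after adjustment over all probe sets.

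Promoters of the members were read from RefSeq (GRCr8), 250 bases before to 50 after the start. PPAR-alpha with RXR binds direct repeats of the hexamer AGGTCA with 1 base between. The list of members was drawn up around PPAR-alpha, and a link between matches and falls was not tested. Of 32 members, 27 matched, with 28 windows, since Plin2 has several starts. Acaa2, Ech1, Acadl, Cyp4a1 and Decr1 had no entry. The hexamer, searched on both strands, was in 8 of 28 member windows (28.6%) and in 16.2% of all 33469 windows. The repeat AGGTCANAGGTCA, on both strands and with at most 2 mismatches at its 12 fixed bases, was in 5 of 28 (17.9%) and in 3.77% of all windows. It overlaps the hexamer search. With at most 1 mismatch it was in 2 of 28 (7.14%), against 0.439% of all windows, and with none in 0 of 28.

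The closest matches, in Acadvl and Fabp1, were in members that did not pass against vehicle. With 2 mismatches stood Cat, which fell with D3T and TBD, Slc25a20, which passed with none, and Crat, which was not measured; of these Cat is shown. The Cyp4a2 and Cyp4a3 stretches are shown because these neighbours share a probe set; their best match has 3 mismatches, found in 24.9% of all windows at that limit or closer. Capitals mark the match, and in Fabp1 it lies on the opposite strand, so the capitals read as its reverse complement.
Acadvl, chr10:55236706-55236752, minus strand: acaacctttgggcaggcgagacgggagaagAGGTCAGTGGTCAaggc
Fabp1, chr4:104749233-104749305, plus strand: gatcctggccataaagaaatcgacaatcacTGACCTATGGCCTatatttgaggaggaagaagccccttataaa
Cat, chr3:110329653-110329725, minus strand: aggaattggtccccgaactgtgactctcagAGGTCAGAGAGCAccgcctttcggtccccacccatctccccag
Cyp4a2, chr5:134171086-134171158, minus strand: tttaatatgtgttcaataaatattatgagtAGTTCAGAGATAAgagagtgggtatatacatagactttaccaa
Cyp4a3, chr5:134352414-134352486, minus strand: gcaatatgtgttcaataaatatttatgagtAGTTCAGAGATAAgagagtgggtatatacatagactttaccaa
Hadha and Hadhb lie head to head, and their windows share 200 of 300 bases. A match describes these letters, and binding was not tested.

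The receptor itself could not be followed. Ppara was too dim to be tested, at 2.82 to 3.10 on all 16 arrays, and so was its partner Rxra, at 1.59 to 2.49. Of the 17 listed receptors, partners and coregulators, 4 were tested and none passed in limma against vehicle, with 1, 0 and 1 at an unadjusted p under 0.05 with D3T, OLT and TBD.

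Of 6 other PPAR-alpha targets tested, Acaa1b was higher and Slc22a5 lower with each compound, and the other 4 did not pass. The list's medians were -0.04, -0.05 and -0.03 with D3T, OLT and TBD. They include Fabp3, at 2.98 to 3.35, and Cpt1b, at 3.05 to 3.35, which lay below the array median throughout. Acaa1b, a peroxisomal thiolase, rose by 2.80 ± 0.30 with D3T, 1.42 ± 0.30 with OLT and 1.49 ± 0.30 with TBD (adjusted p = 3.69e-05, 0.00651 and 0.00406), in contrast to the members Ehhadh and Hacl1. Slc22a5, the carnitine transporter of the cell membrane, lay at -0.64, -0.66 and -0.69 (adjusted p = 0.0122, 0.0162 and 0.0108). Its OLT and TBD calls were lost on the 8 compared arrays (adjusted p = 0.0841 and 0.0772). It was dim, at 3.86 to 4.82 with vehicle and 3.47 to 3.90 on the treated arrays, where array medians were 3.27 to 3.58. OLT replicate 2, at 3.90, overlapped vehicle. Acaa1b and Slc22a5 each belong to a further list that follows and are counted there too.

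Of 22 further peroxisomal genes, D3T lowered 5 and raised 2, OLT lowered 3 and raised 1, and TBD lowered 2 and raised 1. Over all tested probe sets the shares called lower were 12.2%, 7.89% and 9.47% with D3T, OLT and TBD. Those called higher were 6.18%, 3.38% and 3.55%. The TBD count of lower genes lay near its share. These shares also apply to the counts of the other gene lists and of the cell markers. Scp2, a sterol carrier with peroxisomal thiolase activity, fell by 0.63, 0.72 and 0.79 on the log2 scale with D3T, OLT and TBD, and these calls held without any 1 array. Slc25a17, a peroxisomal carrier of cofactors, lay at -0.88, -0.95 and -0.97; without vehicle replicate 2 or 4 each of its calls was lost. Abcd3, which imports fatty acids into peroxisomes, was higher with D3T by 1.45 ± 0.41 (adjusted p = 0.023), and lost that call without vehicle replicate 4 or D3T replicate 1 or 4. The D3T call of Slc25a17 was also lost without D3T replicate 1, 3 or 4, the OLT call without OLT replicate 2, 3 or 4 and the TBD call without TBD replicate 2 or 3.

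Of 9 further genes of mitochondrial acyl-CoA oxidation, D3T lowered 2, OLT 3 and TBD 2, and none was raised. Ivd, of leucine breakdown, was lower with D3T by -0.81 ± 0.23 and with OLT by -0.96 ± 0.23 (adjusted p = 0.0239 and 0.0143). The D3T call was lost without vehicle replicate 2 or 4 or D3T replicate 3 or 4. With the mean of its probe sets, Ivd lay at -0.15 and -0.33 with D3T and OLT and did not pass (adjusted p = 0.617 and 0.327). Etfa, a subunit of the electron carrier that feeds Etfdh, was lower with TBD by -0.80 ± 0.25 (adjusted p = 0.0476), a call lost without any 1 of 12 arrays: vehicle replicates 2 to 4, every D3T array, OLT replicates 3 and 4 and TBD replicates 1 to 3. Hsd17b10, a mitochondrial dehydrogenase, was lower with OLT by -0.59 ± 0.17 (adjusted p = 0.0352), and lost the call without vehicle replicate 2 or 4 or OLT replicate 1, 2 or 3.

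Among 12 tested genes of fatty acid uptake, activation and lipolysis, D3T lowered 4, OLT 2 and TBD 3, and none was raised. Lipc, the hepatic lipase, was lower by -0.83 ± 0.13, -0.87 ± 0.13 and -0.73 ± 0.13 with D3T, OLT and TBD (adjusted p = 0.000748, 0.00116 and 0.00246), and all 3 calls held without any 1 array. Acsl5, another acyl-CoA synthetase, lay at -0.96, -0.94 and -0.67, and its TBD call (adjusted p = 0.0438) was lost without any 1 of 10 arrays: vehicle replicates 1 and 4, every D3T array, OLT replicate 3 and TBD replicates 1, 2 and 4. With the mean of its probe sets, Acsl5 lay at -0.60, -0.59 and -0.29 and passed with no compound (adjusted p = 0.0904, 0.128 and 0.566). Fabp7, a fatty acid binding protein, was lower by -1.49 with D3T and by -1.52 with TBD (adjusted p = 0.00247 and 0.00285). Acsl4 was lower with D3T by -1.21 ± 0.40 (adjusted p = 0.0497), and the call was lost without any 1 of 11 arrays: vehicle replicates 2 to 4, every D3T array, OLT replicates 1 and 2 and TBD replicates 1 and 3.

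Of 6 other CYP4 genes, each compound raised 1 and lowered 1. Cyp4f6 was higher by 0.50, 0.57 and 0.50 with D3T, OLT and TBD, and each of these calls was lost without vehicle replicate 2. They were also lost without vehicle replicate 4 or D3T replicate 1, 3 or 4 for D3T, OLT replicate 4 for OLT, and vehicle replicate 4 or TBD replicate 2 or 3 for TBD. Cyp4f4 was lower by -0.85 ± 0.16 with OLT and by -0.57 ± 0.16 with TBD, the latter lost without vehicle replicate 2, 3 or 4 or TBD replicate 1 or 3. Cyp4b1 was lower with D3T by -0.32 ± 0.09, a call lost without D3T replicate 2. Of the ketone body genes, Slc16a1, a carrier that exports ketone bodies, was higher with OLT by 0.84 ± 0.22 (adjusted p = 0.0227), and lost the call without vehicle replicate 2 or OLT replicate 2 or 3. With the mean of its probe sets, Slc16a1 lay at 0.65 with OLT and did not pass (adjusted p = 0.211). Bdh1, which interconverts the ketone bodies, was lower with TBD by -0.47 ± 0.14 (adjusted p = 0.0424), a call lost without any 1 of 10 arrays: vehicle replicates 1 to 3, every D3T array, OLT replicate 4 and TBD replicates 3 and 4.

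Markers of the cells in the tissue bear on these levels as follows. Of 9 tested hepatocyte markers, D3T raised Alb and Ttr, by 0.50 and 0.56, and lowered Fgb by -0.70. The Alb call was lost under quantile normalization (0.10, adjusted p = 0.108), and the Fgb call without vehicle replicate 2 or 4 or D3T replicate 1 or 4. OLT and TBD changed none in limma. With D3T, OLT and TBD, 5, 3 and 2 of the 9 had an unadjusted p under 0.05 in limma. Over all tested probe sets those shares were 30.8%, 23.1% and 24.3%. The summed hepatocyte marker level was 17.00 to 17.13 with vehicle, 17.25 to 17.34 with D3T, 16.93 to 17.29 with OLT and 17.07 to 17.33 with TBD. All D3T arrays lay above the vehicle range in this sum, while OLT and TBD overlapped it. Of 5 tested markers of Kupffer cells and macrophages, 4 were lower with each compound (Clec4f, C1qb, Aif1 and Cd74), and their summed level was 11.03 to 11.66 with vehicle, 10.16 to 10.52 with D3T, 9.86 to 10.48 with OLT and 10.15 to 10.72 with TBD. The Cd74 call was lost without vehicle replicate 4 with each compound, and without further single arrays. Of 4 tested endothelial markers, Lyve1 alone was called, and the list's medians were -0.10, -0.05 and -0.07 with D3T, OLT and TBD. Pecam1, Vwf and Kdr lay within -0.17 and 0.25 of vehicle and did not pass. Pecam1 read 2.94 to 3.27 and Vwf 2.94 to 3.32, below the array median throughout, so a change in them could hardly be seen. The Kdr difference with OLT rested on OLT replicate 2, at 9.38. Lyve1 was lower by -1.92 with D3T and by -1.21 with TBD, the latter lost without vehicle replicate 2 or 4 or TBD replicate 1. Of 3 tested stellate markers, D3T and TBD lowered Col1a1 and Col3a1, and OLT lowered Col1a1. Dcn lay the other way, at 0.22, 1.06 and 0.93 with D3T, OLT and TBD, without passing. Col1a1 was lower by -4.01, -2.16 and -2.84 with D3T, OLT and TBD, and its OLT call was lost without any 1 of 13 arrays. Col3a1 was lower by -0.83 with D3T and -0.74 with TBD, the latter lost without vehicle replicate 4 or TBD replicate 1 or 3. The part of these cells in the differences of the members was not tested.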

How the data were processed

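Biotin-labelled liver RNA of 16 rats was measured, 1 rat an array. The authors deposited log2 values for 8740 probe sets. The submitters' processing notes name GCRMA, without a version, as the method behind them; GCRMA compresses values near background. Gene names came from GEO's platform annotation: 7006 probe sets carried 1 symbol, 308 several and 1426 none, and none was named from a set with several, apart from the set shared by Cyp4a3 and Cyp4a2. Rats were singly housed, per the series' design text. Of these, 5323 were tested: those above the 40th percentile of the array in 4 or more of the 16 arrays. Limma 3.58.1 in R 4.3.3 fitted the 4 groups over all arrays, two-sided, with Benjamini-Hochberg adjustment over all tested sets in each comparison. The script was tested on simulated data. Figures used matplotlib 3.10.9 in Python 3.11.15.

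A member got every array's value if it passed against vehicle with at least 2 compounds, was among the 3 largest differences of a comparison, or passed between compounds without overlap; Cpt1a, Ehhadh and Cyp4a1 always did. At most 4 called genes were named per background list, and Ppara was always given. Single values of other members, of further probe sets, of Rxra and of further markers were added after they were seen. The members, lists and rules were chosen with earlier results of these data known. Protein sequences were not used here. Alternatives are given in the closing section.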

Additional observations from a re-analysis of the deposited data

Results flagged for a closer look

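Single arrays stood apart from the other 3 of their group for 7 of the 120 member groups checked, where the gap to the nearest array exceeded 0.829 of the group's range, and chance gives about 1 in 20 groups. Cyp4a3 held a pair of them, at 5.76 on OLT replicate 1 against 6.78 to 6.88 on the others, and at 7.20 on TBD replicate 2 against 6.42 to 6.54. Hadha read 8.97 on vehicle replicate 4 against 9.21 to 9.25. Decr1 read 10.52 on vehicle replicate 1 against 10.72 to 10.76. Acadm read 11.02 on D3T replicate 2 against 10.86 to 10.89. Acot2 read 3.90 on TBD replicate 3 against 4.10 to 4.13. Hadh, which was too dim to be tested, read 1.55 on TBD replicate 3 against 1.63 to 1.64.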

How the results depend on the processing

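Of 39 calls of members in the 6 comparisons, 25 held without any 1 array, 14 were lost without at least 1, and none changed direction under the alternatives run. Under all alternatives together, 12 of the 39 held; an adjusted p under 0.01 alone ended 24. The count of members changed by D3T was 14, and 4 at an adjusted p under 0.01, 16 with array weights, 13 with centred array medians, and 10 to 14 with single arrays left out. For OLT the count of 8 became 5 with the replicate number as a block, 4 with centred array medians, 2 at an adjusted p under 0.01, 3 to 12 with single arrays left out, and 14 without OLT replicate 1 and TBD replicate 4, an alternative chosen after seeing the data; array weights gave 11. For TBD the count of 16 became 10 on the 8 compared arrays and 9 at an adjusted p under 0.01, 11 with centring, 20 with array weights, and 13 to 19 with single arrays left out. D3T against OLT had 1, and 2 with the replicate block, quantile normalization or array weights, 0 with centring or an adjusted p under 0.01, and 0 to 2 with single arrays left out. D3T against TBD had 0, 5 with array weights, 1 (Hadha) with probe sets averaged per gene, and 0 to 1 with single arrays left out. TBD against OLT stayed at 0 throughout. The cause of these changes was not tested. The median difference of the members kept its sign against vehicle under both scalings, at -0.26 and -0.42 with D3T, -0.33 and -0.42 with OLT, and -0.54 and -0.61 with TBD. Equal replicate numbers did not pair the arrays: 8 of 24 pairs had a correlation of deviations over 0.1, and 5 of 16 arrays correlated best with their own number. With the replicate block D3T changed 12 members and TBD 15. Of 77 calls of named list genes and further probe sets, 35 were lost without at least 1 array and none changed direction. With 4 arrays a group, differences of dim sets such as Acot2 and Pex11a rest on signal near background.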
